A study of Caenorhabditis elegans with 2 samples.

Results

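Terminal selectors are transcription factors that switch on, and keep on, the battery of genes that gives a neuron class its identity, such as its neurotransmitter pathway, receptors and ion channels. In the nematode Caenorhabditis elegans most are homeodomain proteins, and several usually act together in each neuron. ZTF-11 is a zinc-finger protein of the MYT1 family, known in the worm for acting in neurogenesis as a repressor of non-neuronal genes. The 32 terminal selector genes described here are a fixed list of names, set against all 19973 nuclear protein-coding genes, chosen by name and not by a binding threshold, though with earlier results of these data known. All 32 matched 1 annotated gene each.

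ZTF-11 binding was mapped by chromatin immunoprecipitation and sequencing (ChIP-seq) in 1 group with 2 biological replicates. The animals were whole hermaphrodite L1 larvae of strain OP511, genotype unc-119(tm4063) III; wgIs511, collected 6 hours after synchronization by starvation following bleaching. The line stably expresses ZTF-11 with a C-terminal GFP-FLAG tag, and chromatin was precipitated with an antibody to GFP. What drives the tagged gene, and in which cells, is not stated in the labels. No other condition was studied, so there is no test between conditions.

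Regions were listed for each replicate and for the pooled reads, 30000 in each case, and are ranked here by the authors' signal, which is the caller's own value within a list. The authors kept the top 1875 of the pooled list by an irreproducible discovery rate (IDR) threshold. Those are called IDR peaks below, and the other 28125 regions are those below the IDR list. Of the latter, 6392 (22.7%) had a summit within 100 bp in both replicate lists, and these are called reproduced regions. Larvae were processed whole, so weak binding in many cells and strong binding in a few neurons cannot be told apart. Read depth is unknown from these lists.

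No terminal selector gene had an IDR summit within 1000 bp of its annotated 5' end. The share was 8.09% over all coding genes and 5.03% over those with similar upstream space, and a lower share was not detectable with 32 genes. Within 5000 bp 4 genes had an IDR summit (12.5%), near the 18.8% and 14.7% of those backgrounds. The 4 genes were ahr-1, zag-1, unc-86 and ceh-10. Weaker regions were found inside 26 of the 32 genes, against 49.1% of all coding genes and 70.3% of those of similar length. A reproduced one was inside 16 of 32, with 24 such summits in all, against 16.5% and 23.9%.

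The sequences around the summits that the account turns on are given first. Each is 151 bases centred on the summit, on the strand of the named gene, from the RefSeq copy of WBcel235, which is the ce11 assembly. They come from the IDR peaks and from the best-ranked region below the IDR list at the genes that had the 8 best such ranks, and all 7 windows that could be printed are shown, so that peaks and weaker regions can be compared. Capitals mark 4 motifs on either strand. The first motif is GAGAGA. The next, AAGTT, is the core known for MYT1-family proteins. The others are CTGCGTCT and, last, the motif GGCGGG. The zag-1 IDR peak (chrIV:3858188-3858338, plus strand) lies in an intron of the gene, and the unc-86 IDR peak (chrIII:8220240-8220390, minus strand) lies upstream of it. The weaker regions are those of zag-1 (chrIV:3860481-3860631, plus strand), ceh-24 (chrV:13808648-13808798, plus strand), mab-9 (chrII:513245-513395, plus strand), unc-86 (chrIII:8211634-8211784, minus strand) and unc-42 (chrV:9765753-9765903, minus strand).
zag-1 IDR peak: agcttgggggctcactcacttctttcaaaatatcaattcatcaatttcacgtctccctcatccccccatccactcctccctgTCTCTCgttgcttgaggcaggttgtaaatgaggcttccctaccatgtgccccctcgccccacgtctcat
unc-86 IDR peak: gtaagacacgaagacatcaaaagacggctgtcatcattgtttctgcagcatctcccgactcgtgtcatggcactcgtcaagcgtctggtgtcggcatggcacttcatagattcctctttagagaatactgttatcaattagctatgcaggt
zag-1 region: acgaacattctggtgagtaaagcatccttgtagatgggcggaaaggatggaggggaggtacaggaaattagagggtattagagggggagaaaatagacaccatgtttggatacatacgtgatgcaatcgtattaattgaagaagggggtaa
ceh-24 region: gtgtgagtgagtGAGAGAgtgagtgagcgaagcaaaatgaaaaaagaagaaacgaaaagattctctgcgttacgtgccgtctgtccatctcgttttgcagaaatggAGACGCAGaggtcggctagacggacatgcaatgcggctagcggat
mab-9 region: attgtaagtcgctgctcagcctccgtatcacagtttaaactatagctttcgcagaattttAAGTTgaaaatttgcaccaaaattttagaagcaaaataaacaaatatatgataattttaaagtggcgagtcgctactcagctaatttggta
unc-86 region: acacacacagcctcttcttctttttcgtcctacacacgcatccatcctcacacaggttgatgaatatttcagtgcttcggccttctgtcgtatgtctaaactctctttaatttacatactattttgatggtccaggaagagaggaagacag
unc-42 region: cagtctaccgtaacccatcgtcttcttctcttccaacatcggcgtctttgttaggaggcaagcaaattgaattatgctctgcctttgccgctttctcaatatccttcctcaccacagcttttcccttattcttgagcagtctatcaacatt

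The zag-1 peak held GAGAGA once, read on the opposite strand, and 52.3% of its bases were G or C. The ceh-24 region held GAGAGA and, on the opposite strand, CTGCGTCT. The mab-9 region held AAGTT, and 33.1% of its bases were G or C. The unc-86 peak and the zag-1, unc-86 and unc-42 regions held no match to the 4 motifs.

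The 32 genes lie in wide spaces and are long, which sets how many regions any window can catch. The median distance from the 5' end to the next coding gene upstream was 4902 bp, from 1706 bp at the 10th percentile to 14082 bp at the 90th, against a median of 936 bp over all coding genes. The median gene length was 4912 bp against 2027 bp. For windows around the 5' end the genes were therefore set beside 6624 other coding genes whose upstream space lay between those percentiles. For gene bodies they were set beside 5986 other coding genes with a length between the same percentiles of the list, from 2669 to 8477 bp. These shares are descriptions without a test, because the list was proposed with results of these data known.

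Within 1000 bp of the 5' end, 0 of 32 genes had an IDR summit, which allows a share of up to 9.38% by the limit of 3 counts for a count of 0, and up to 10.9% by the exact Clopper-Pearson 95% interval. The share was 8.09% over all coding genes and 5.03% over genes with similar upstream space, both below these limits, so a lower share was not detectable with 32 genes. Within 5000 bp, 4 of 32 genes had an IDR summit (12.5%, exact Clopper-Pearson 95% interval 3.51 to 29.0). That interval, like all those given here, covers counting error only. Over all coding genes the share within 5000 bp was 18.8%, and over genes with similar space 14.7%, so the list was near its background. Inside the gene, 2 of 32 genes had an IDR summit (6.25%, 0.766 to 20.8), against 2.21% of all coding genes and 3.17% of genes of similar length. The median distance from the 5' end to the nearest IDR summit was 18822 bp for the list, 22434 bp over all coding genes and 24056 bp over genes with similar space. It was 18778 bp over genes of similar length, close to the list, and 21018 bp over those similar in both.

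**Figure D1:**
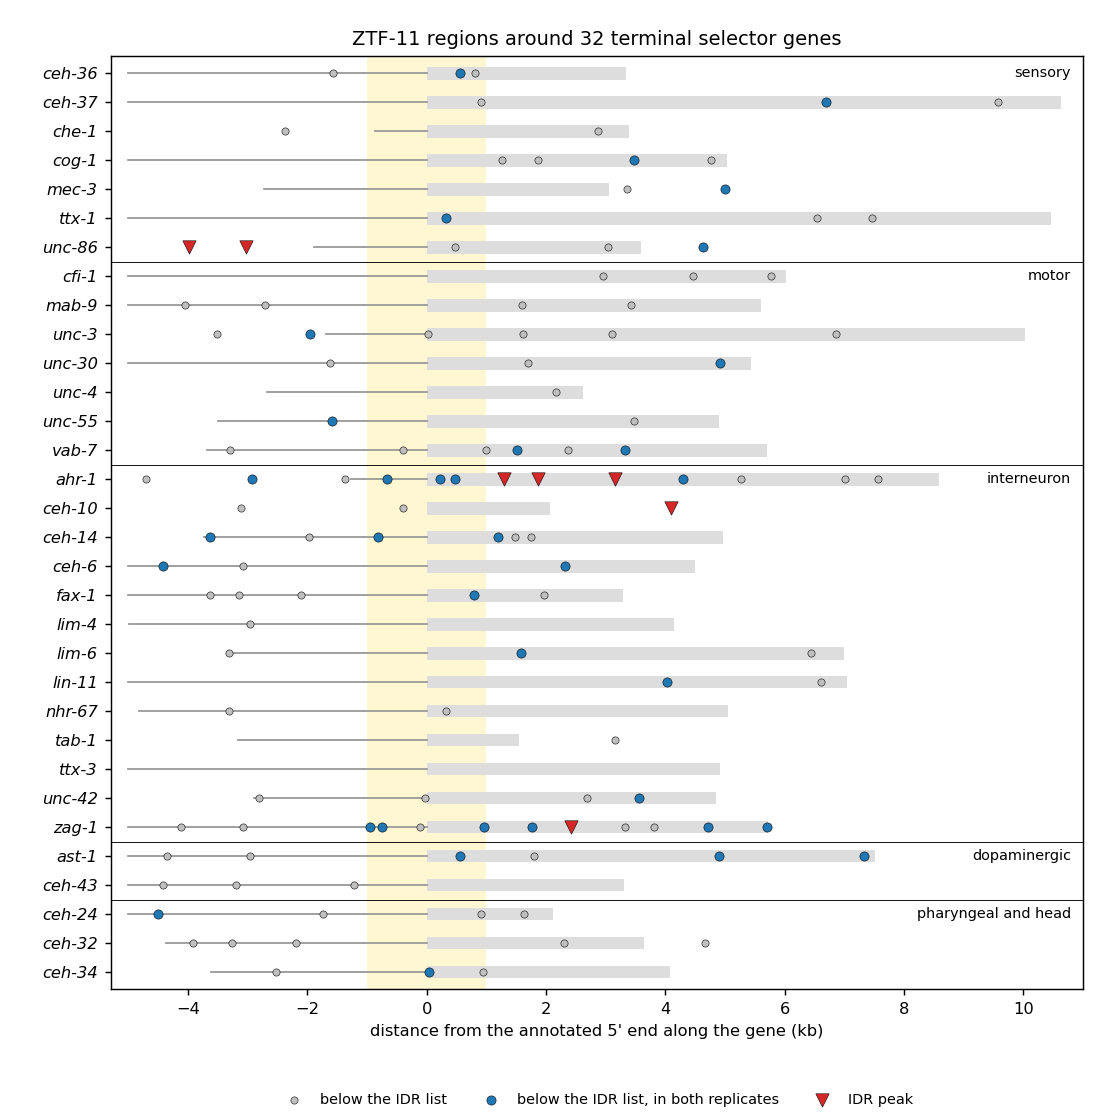
Position of every pooled-list region within 5000 bp of the 5' end or inside the gene, for the 32 genes grouped by the neurons they are best known for; the horizontal axis is distance from the 5' end in kb, grey bars are gene bodies, thin lines the upstream space (drawn up to 5 kb), and the shaded band is 1000 bp to each side of the 5' end. The red triangles of IDR peaks appear at 4 genes and never in the band, while blue reproduced regions appear at 21 genes.

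The gene with the most IDR peaks was ahr-1, the worm aryl hydrocarbon receptor homolog, which distinguishes classes of head neurons. It lies on chromosome I from 9522550 to 9531132, plus strand. Its 3 IDR summits were all in introns of the gene, 1298, 1869 and 3161 bp downstream of the 5' end. The summit at 1869 bp had a pooled signal of 130 (rank 710), with ranks of 701 in replicate 1 (signal 84.7) and 728 in replicate 2 (signal 47.7). The summit at 3161 bp had a pooled signal of 127 (rank 726), with ranks of 883 (signal 70.7) and 597 (signal 55.1). These 2 sites were thus strong in both replicates. The summit at 1298 bp was weaker, with a pooled signal of 75.5 (rank 1538), a rank of 1730 in replicate 1 and no match within 100 bp in replicate 2. A second annotated transcript of ahr-1 starts 2112 bp downstream of the outermost 5' end, 243 bp from the summit at 1869 bp and 814 bp from that at 1298 bp. If the 5' ends of all transcripts are taken, ahr-1 is the 1 gene of the 32 with an IDR summit within 1000 bp. The summit at 3161 bp was nearer to another 5' end, that of cylc-2, at 1730 bp.

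Around these peaks ahr-1 carried 5 reproduced regions below the IDR list. The 2 nearest its 5' end inside the gene, at 228 and 472 bp, had pooled signals of 44.7 and 39.4 (ranks 3693 and 5106). The first ranked 3506 in replicate 1 and 20054 in replicate 2, and the second 9687 and 5798. The strongest, at 4297 bp, had a signal of 46.7 (rank 3340, replicate ranks 4114 and 2659) and lay in an exon, inside cylc-2 as well. A further region 2932 bp upstream lay in an exon of set-32, and 1 lay 663 bp upstream of ahr-1 at rank 19505.

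zag-1 encodes the worm ZEB-family zinc-finger homeodomain protein, which acts in the differentiation of many neuron types, and it lies on chromosome IV from 3855843 to 3861569, plus strand. Its IDR summit was intronic and 2420 bp into the gene, with a pooled signal of 78.0 (rank 1462), rank 1419 in replicate 1 (signal 51.5) and rank 2793 in replicate 2 (signal 22.3). In replicate 2 the matched summit was 71 bp away and ranked below 1875. The summit also lay in an exon of the non-coding RNA gene F28F9.9, 135 bp from where that gene starts, so the sequence printed above is shared by both genes. zag-1 had 6 reproduced regions below the IDR list, more than any other of the 32 genes. The strongest was at 4713 bp in an intron (signal 56.7, rank 2338, replicate ranks 3036 and 4707). The next was 950 bp upstream (rank 2449, replicate ranks 2182 and 6656), 5 bp from the start of F28F9.10, another non-coding RNA gene. The others lay 741 bp upstream and 961, 1761 and 5711 bp downstream, with signals from 30.5 to 46.8.

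unc-86, a POU homeodomain gene needed for touch receptor and several other neurons, lies on chromosome III from 8212740 to 8216336, minus strand. Its 2 IDR summits were 3979 and 3037 bp upstream. The farther had a pooled signal of 118 (rank 813), with rank 687 in replicate 1 (signal 86.1) and 1472 in replicate 2 (signal 30.7). The nearer had 105 (rank 965), with ranks of 1471 (signal 50.2) and 822 (signal 43.9). Both were among the 1875 strongest regions of each replicate. The upstream space of unc-86 is 1882 bp, so both summits lay past the far end of the next coding gene, C30A5.16, whose 5' end was nearer, at 2096 and 1154 bp. Neither summit lay in a coding gene or an annotated exon.

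The peak counted for ceh-10 lay closest to another gene. ceh-10 encodes a paired-like homeodomain protein of the AIY interneurons, and its span on chromosome III is 5799047 to 5801115, plus strand. The IDR summit 4095 bp downstream of its 5' end was 18 bp from the 5' end of polq-1 and inside that gene. It was near the end of the IDR list, with a signal of 66.4 (rank 1858) against 66.2 for the last peak. The replicates ranked it 1148 and 23019, so it rested mostly on replicate 1. Counting only summits in a gene's own upstream space or body, or only the single nearest coding 5' end, ahr-1 and zag-1 were the 2 genes left.

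**Figure D2:**
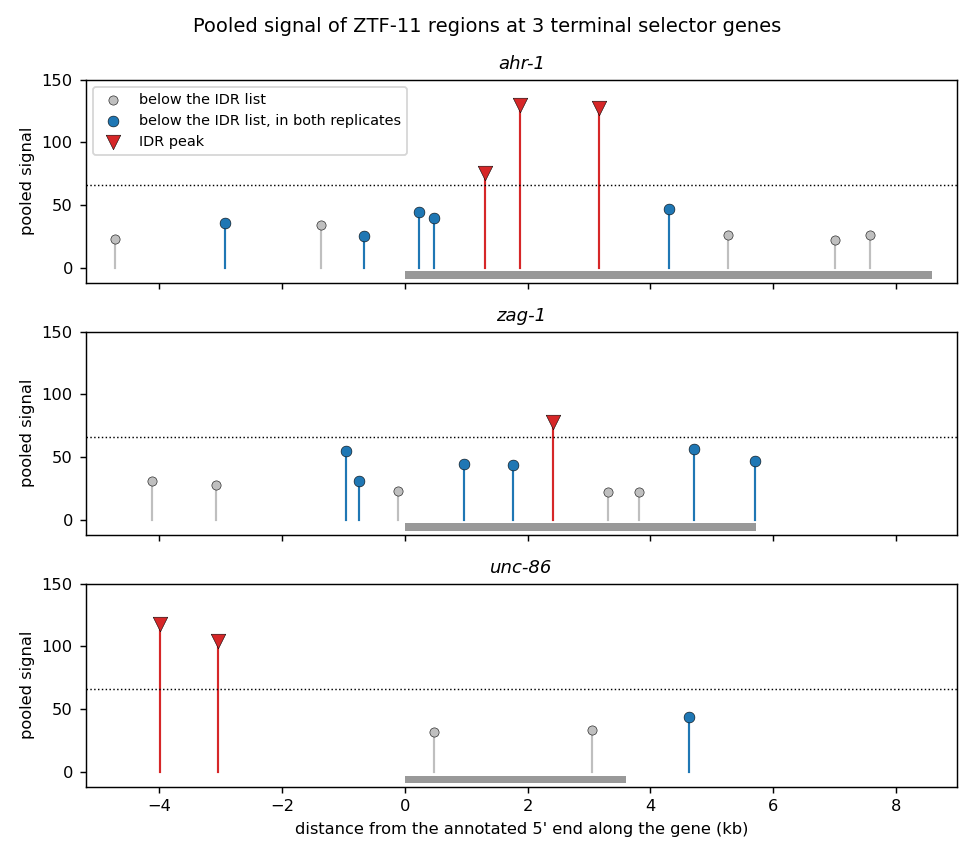
Pooled signal of each region at ahr-1, zag-1 and unc-86 against distance from the 5' end in kb; grey bars are the gene bodies and the dotted line is the signal of the last IDR peak, 66.2. The 3 IDR peaks of ahr-1 and the 1 of zag-1 lie inside the gene and the 2 of unc-86 lie more than 3 kb upstream of it.

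Taken singly, the replicates gave the same count within 1000 bp but not within 5000 bp. In the 1875 strongest regions of replicate 1, the 4 genes ahr-1, zag-1, unc-86 and ceh-10 had a summit within 5000 bp. In those of replicate 2 only ahr-1 and unc-86 did. Neither list had a summit within 1000 bp of a selector gene's 5' end. The median rank of the strongest region within 5000 bp or inside was 10523 in replicate 1 over 31 genes and 5985 in replicate 2 over 32 genes. The strongest regions of the replicates were within 100 bp of each other at 6 genes: ast-1, ceh-24, ceh-34, cog-1, lim-6 and lin-11. At 25 genes they were farther apart, by 135 bp at ceh-43 and 200 bp at ceh-6 and by more at the rest, and unc-4 had no region in replicate 1 to compare. These counts, ranks and distances by replicate were not made for other coding genes. They do not show whether the selectors differ from other genes here.

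**Figure D3:**
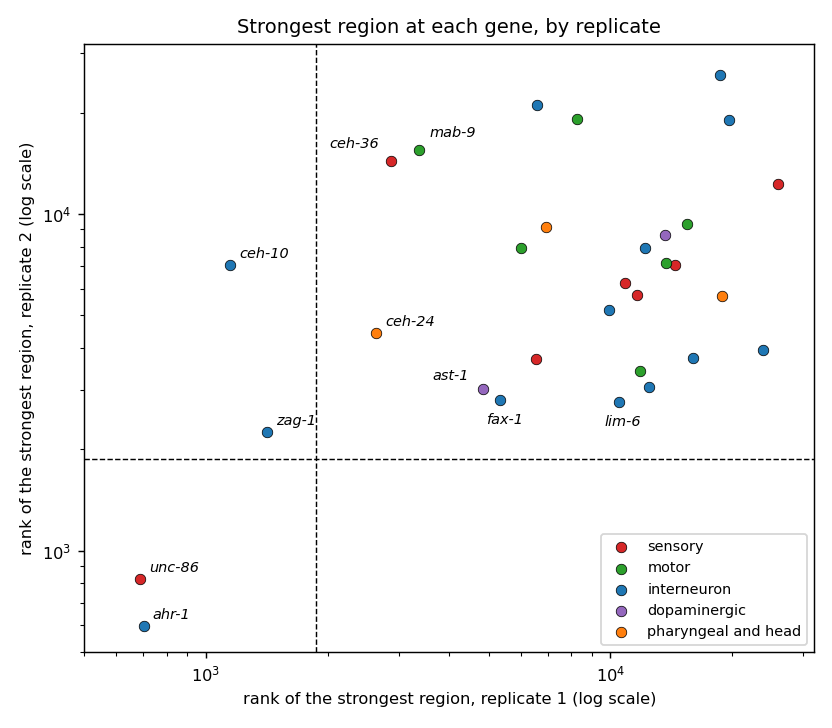
Rank of the strongest region within 5000 bp of the 5' end or inside the gene in replicate 1 (horizontal) and replicate 2 (vertical), 1 point per gene, both axes logarithmic, with dashed lines at rank 1875; unc-4 has no region in replicate 1 and is not drawn. Only unc-86 and ahr-1 lie beyond both lines, and zag-1 and ceh-10 beyond that of replicate 1.

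Regions below the IDR list were near or inside nearly all of the genes, and the shares of other genes with such a region near the 5' end or, at similar length, inside lay within the intervals of the 32. Within 1000 bp of the 5' end, 16 of 32 genes had such a region (95% interval 31.9 to 68.1%), against 46.5% of all coding genes and 43.4% of those with similar space. Within 5000 bp, 31 of 32 did (96.9%, 83.8 to 99.9), against 90.9% and 90.5%. The exception was ttx-3, a LIM homeodomain gene of the AIY interneurons, which had no pooled region there at all. Inside the gene, 26 of 32 had a region (81.2%, 63.6 to 92.8), against 49.1% of all coding genes and 70.3% of those of similar length.

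For reproduced regions inside the gene, the shares of other genes lay below the interval of the 32. For those within 1000 bp of the 5' end they lay within it. Within 5000 bp or inside, 21 of 32 genes had a reproduced region (65.6%, 46.8 to 81.4), against 45.9% of all coding genes and 45.1% of those with similar space. Over genes with similar space and length, a comparison added later, that share was 48.2%, which lay within the interval of the 32. Within 1000 bp, 8 of 32 had a reproduced region (95% interval 11.5 to 43.4%), against 13.3% of all coding genes and 12.1% of those with similar space. Inside the gene, 16 of 32 did (95% interval 31.9 to 68.1%), against 16.5% of all coding genes and 23.9% of those of similar length. Those 24 reproduced summits came to 1.46 per 10 kb of gene, against 0.658 over all coding genes and 0.638 over genes of similar length. ahr-1 and zag-1 held 7 of them between them. Without these 2 genes, 14 of 30 had a reproduced region inside (46.7%), with 1.13 summits per 10 kb.

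**Figure D4:**
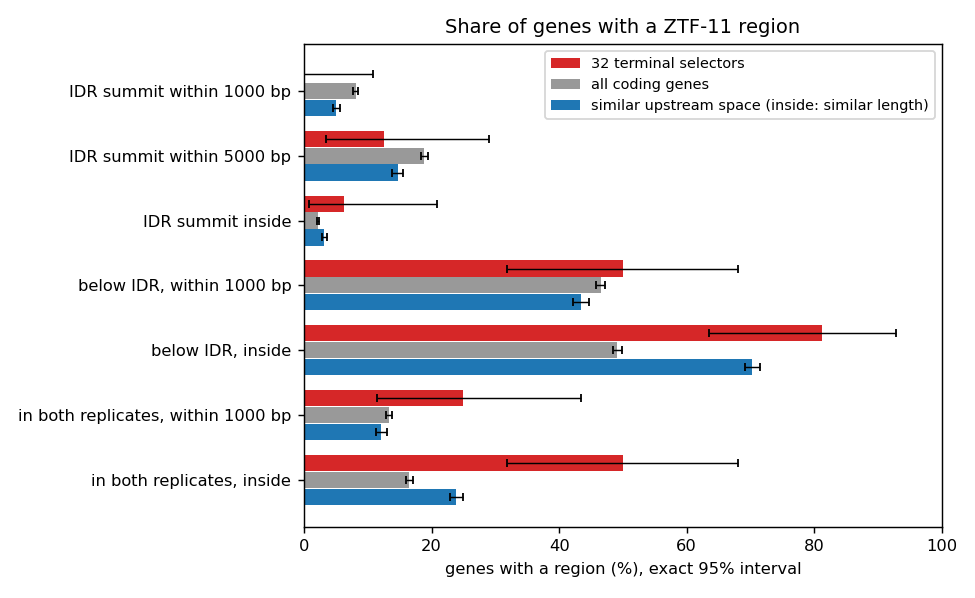
Share of genes with a ZTF-11 region in 7 windows, for the 32 terminal selectors (red), all coding genes (grey) and other coding genes with similar upstream space or, for the rows on gene bodies, similar length (blue); bars start at 0 and error bars are exact 95% intervals. The red bar is at 0 for IDR summits within 1000 bp and stands for 16 of 32 genes at reproduced regions inside the gene, where the blue bar is at 23.9%.

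The 36 reproduced regions at the 21 genes lay mostly within the genes. Of these, 18 summits were in introns of coding genes, 9 in exons of coding genes, 2 in non-coding genes and 7 in intergenic sequence. In 32 cases the summit was in the selector gene's own upstream space or body, and in 26 cases the nearest coding 5' end was its own.

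Over all coding genes 45.9% had a reproduced region and 16.5% had one inside, or 23.9% at similar length. The groups by neuron type that follow are small, and differences between them were not tested. Among the 7 genes best known for sensory neurons, 6 had a reproduced region and 4 had one inside. In ttx-1, an OTX gene of the AFD thermosensory neurons, it was in an intron 330 bp from the 5' end, with a signal of 33.8 and replicate ranks of 20566 and 7052. In ceh-37, an OTX gene of the AWB olfactory neurons, it was in an intron at 6695 bp (signal 34.7, replicate ranks 29501 and 3701). Its paralog and neighbour ceh-36, of the AWC and ASE neurons, had a weaker one in an intron at 561 bp (rank 15752, replicate ranks 26466 and 17560). These OTX genes thus had a reproduced region each in an intron, all of low rank in replicate 1. In cog-1, an NKX6 homeodomain gene acting in ASE asymmetry, the region was at 3476 bp (signal 39.1, replicate ranks 10856 and 6226). For unc-86 it was 4627 bp downstream of the 5' end, past the gene and in the non-coding RNA gene C30A5.15 (signal 43.5, rank 3946). It was strong in replicate 2 (rank 1486, signal 30.5) and weak in replicate 1 (rank 26710, signal 14.7). For mec-3, the LIM homeodomain partner of unc-86 in touch neurons, it was at 5000 bp, at the edge of the window and inside srb-17. che-1, the zinc-finger selector of the ASE taste neurons, had none, and its best region below the IDR list was at rank 18785.

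None of the 7 genes best known for motor neurons had an IDR peak within 5000 bp, beside 18.8% of all coding genes. Of the 7, 4 had a reproduced region, 2 of them inside, beside 45.9% and 16.5% of all coding genes. vab-7, an even-skipped homolog of the DB neurons, had 2 in introns, at 3319 bp (signal 34.8) and 1514 bp (signal 30.7). The first was strong in replicate 2 (rank 3408) and weak in replicate 1 (rank 25791). The GABAergic selector unc-30, a PITX homolog, had 1 in an intron at 4917 bp (signal 25.7, replicate ranks 25344 and 20497). unc-55, a nuclear receptor of the VD neurons, had 1 in its own upstream space at 1595 bp (signal 33.2, replicate ranks 20025 and 7133). For unc-3, the COE-family selector of cholinergic motor neurons, the region 1961 bp upstream lay in an intron of the neighbour Y16B4A.2. unc-4, cfi-1 and mab-9 had none. These encode a paired-like homeodomain protein, an ARID protein and a T-box protein. The mab-9 region of best rank, 2704 bp upstream (rank 3638), had a match in replicate 1 (rank 3368, signal 31.4) and none within 100 bp in replicate 2.

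Among the 13 genes best known for interneurons and other head neurons, 8 had a reproduced region, beside 45.9% of all coding genes. The same 8 of the 13 had one inside, beside 16.5% of all coding genes and 23.9% of those of similar length. Besides ahr-1 and zag-1, lim-6, an LMX1 homolog, had 1 in an exon at 1585 bp (signal 42.6, replicate ranks 10523 and 2761). unc-42, a paired-like gene of command interneurons, had 1 in an intron at 3563 bp (signal 40.7, replicate ranks 12504 and 5069). lin-11, an LHX1 homolog, had 1 in an intron at 4026 bp (signal 39.9, replicate ranks 6593 and 21095). None of these 3 came near the signal of the last IDR peak. The POU gene ceh-6 had 1 in an intron at 2325 bp and 1 upstream at 4425 bp, with signals of 36.5 and 37.5. The LHX3 homolog ceh-14 had 3, at 823 and 3633 bp upstream and 1197 bp downstream, with signals from 24.6 to 33.5. fax-1, a nuclear receptor gene, had 1 in an exon at 797 bp (signal 29.1). ttx-3, ceh-10, lim-4, nhr-67 and tab-1 had none.

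Of the genes for dopaminergic identity, ast-1, an ETS factor, had 3 reproduced regions inside the gene, at 551, 4898 and 7326 bp. The first lay in an exon, with a signal of 46.8 (rank 3318) and replicate ranks of 14080 and 3013. The distal-less homolog ceh-43 had none, though 12889 bp of its upstream sequence are free of coding genes. Of the 3 pharyngeal and head genes, ceh-24, an NK-2 homeodomain gene, had the best-ranked region below the IDR list after 2 of zag-1. It lay 4508 bp upstream with a signal of 50.3 (rank 2894) and replicate ranks of 2639 and 4429, nearer to the 5' end of swan-1. The sine oculis homolog ceh-34 of pharyngeal neurons had 1 at 45 bp, in an exon (signal 38.6, replicate ranks 18944 and 5695), the reproduced region nearest to a selector's 5' end. Its relative ceh-32 had none.

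By protein family, the 22 genes of homeodomain families, in which zag-1 was not counted, had no IDR peak inside. The share with an IDR peak inside was 2.21% over all coding genes and 3.17% over those of similar length. Of the 22, 15 had a reproduced region and 12 had one inside, beside 45.9% and 16.5% of all coding genes. Among genes of similar length 23.9% had one inside. Both genes with an IDR peak inside, ahr-1 and zag-1, were among the other 10. The zag-1 protein also has a homeodomain, so this split depends on how zag-1 is classed. Of the 10, 6 had a reproduced region, 4 of them inside. The difference was not tested.

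Beyond 5000 bp, 5 more genes had an IDR summit within 10000 bp of the 5' end, and all 5 summits were nearer to another coding gene. The share of other coding genes at this distance was not counted, so these 5 have no background beside them. For ceh-24 the summit was 5780 bp downstream, at sel-10. For lim-6 it was 8195 bp upstream, nearest to unc-1, and for ceh-6 it was 8848 bp upstream, at sec-12. For nhr-67 it was 9633 bp downstream, at cpt-2, and for mab-9 it was 9783 bp upstream. The strongest IDR peak that was nearest to a selector was that of cfi-1, 10931 bp downstream, with a signal of 674 (rank 14) at the histone gene his-68. For vab-7 the nearest summit, 14962 bp upstream, had unc-119, the gene mutated in this strain, as its nearest coding gene. ceh-34 lay farthest from an IDR summit, at 185684 bp.

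Effector genes of neuron identity, and other factors of neuron identity, were counted in the same way. Apart from daf-19, the genes named here were chosen after their values were seen. Of 40 effector genes (neurotransmitter synthesis and transport, touch and sensory transduction), 0 had an IDR summit within 1000 bp (95% interval 0 to 8.81%), beside 8.09% of all coding genes. Within 5000 bp, where the share of all coding genes was 18.8%, 3 of the 40 had one (95% interval 1.57 to 20.4%). Those were cat-2, the dopamine synthesis enzyme tyrosine hydroxylase, with a summit 2470 bp upstream (signal 355, rank 118), cat-1, the vesicular monoamine transporter, and odr-10, the diacetyl receptor. In cat-1 the summit was 2742 bp inside (signal 77.1). For odr-10 the summit was 1969 bp upstream (signal 69.7, rank 1739), closer to the coding gene C53B7.6. Inside the gene 3 of 40 had an IDR summit, cat-1, mod-5, a serotonin transporter, and osm-9, a TRPV channel. The osm-9 summit ranked 1287 in replicate 1 and had no match within 100 bp in replicate 2. Of the 40, 15 had a reproduced region inside (37.5%, 22.7 to 54.2), beside 16.5% of all coding genes. Over genes similar in length to the 32 selectors the share was 23.9%, within that interval. Genes matched in length to the 40 were not counted. Within 1000 bp 4 of the 40 had a reproduced region (10.0%), beside 13.3%. Within 5000 bp or inside, 24 of the 40 had one (60.0%, 43.3 to 75.1), beside 45.9% of all coding genes and 65.6% of the 32 selectors.

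Of 26 other neuron identity factors, 1 had an IDR summit within 1000 bp (3.85%, 0.0973 to 19.6), beside 8.09% of all coding genes. It was daf-19, the RFX factor of ciliated neurons, with a summit 167 bp upstream (signal 164, rank 495). Within 5000 bp there were also egl-46, a zinc-finger gene with a summit 1802 bp upstream (rank 288), and sem-4, a spalt homolog, at 4349 bp upstream (signal 80.1). That made 3 of 26 within 5000 bp (11.5%, 2.45 to 30.2), beside 18.8% of all coding genes. None of the 26 had an IDR summit inside, beside 2.21%. Reproduced regions were inside 10 of 26 (38.5%, 20.2 to 59.4), beside 16.5% of all coding genes. Over genes similar in length to the 32 selectors the share was 23.9%, within that interval. Genes matched in length to the 26 were not counted. Within 1000 bp 5 of the 26 had a reproduced region (19.2%), beside 13.3%. Within 5000 bp or inside, 16 of the 26 had one (61.5%, 40.6 to 79.8), beside 45.9% of all coding genes and 65.6% of the 32 selectors.

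Base content and motifs at the selector genes' regions were set beside those of all regions of the same class, and 7 IDR peaks are too few to show a difference or a likeness. In the 151 bases around the summit, the 7 IDR peaks within 5000 bp or inside held 44.7% ± 5.81 (SD over 7 peaks) G and C, against 46.6% ± 7.66 over all 1875. GAGAGA, counted on both strands, was in 1 of the 7, that of zag-1, against 31.6% of all IDR peaks. AAGTT was in 1 of the 7, that counted for ceh-10, against 19.8%. CTGCGTCT and GGCGGG were in none of the 7, against 11.7% and 10.2%. In the 36 reproduced regions G and C made up 41.6% ± 9.46, against 41.2% ± 8.91 over all 6392. AAGTT was in 12 of 36 (33.3%) against 35.3%, and GAGAGA in 6 of 36 (16.7%) against 13.7%. CTGCGTCT was in 1 of the 36, the ceh-24 region printed above, against 2.80%, and GGCGGG in 1 against 5.12%. A match is a description of these letters and not a binding site.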

How the data were processed

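The authors made each region list from the alignments of 1 replicate, or of both pooled, with a control, and the IDR list from these 3 lists, per the deposited text files. No source used here names the caller, the aligner or the threshold. The signal in the deposited lists is the caller's own value and was used to rank regions within a list. Summits are the deposited start plus offset, on ce11, counted from 1. All regions lay within the chromosome lengths of WBcel235.

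Genes came from Ensembl release 115. A gene's 5' end is its outermost annotated one. In trans-spliced genes transcription may begin further upstream. Other genes were chosen as similar between the 10th and 90th percentiles of the 32. Counting was tested on simulated data (Python 3.11.15, numpy 2.4.6, scipy 1.17.1). Intervals are exact Clopper-Pearson, at 95%. No statistical test was run: there is 1 group, and members, groupings and lists were chosen with earlier results of these data known. All 32 genes are named. Positions, ranks and replicate ranks are given, most with signals, for genes with an IDR summit within 5000 bp or inside and for those with the 8 best-ranked regions below the list. Sequences in untranslated exons or on a chromosome not printed here were left out. The ce10 lists were not used here.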

Additional observations from a re-analysis of the deposited data

How the results depend on the processing

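Of 41 alternatives to the counts of the 32 genes, 30 stayed within 1.5 times the value given. The count of 0 within 1000 bp became 1 with the 5' ends of all transcripts and 1 at 2000 bp, both through ahr-1, and stayed 0 in the others, 0 without either replicate. The 4 genes within 5000 bp became 2 with the 0.5 of IDR peaks of highest signal, 2 with the single nearest coding 5' end, 2 in the gene's own territory (added after the data were seen) and 9 at 10000 bp. They were 2 to 4 with 1 replicate alone, and the lower value is without replicate 1. No share of other genes was counted at 10000 bp. The 2 genes with an IDR summit inside became 1 with that 0.5 of the peaks and were 1 to 2 with 1 replicate. With the strongest 0.25 of the regions below the IDR list, the 16 genes within 1000 bp became 8 and the 26 with a region inside became 14. Genes with a reproduced region were 17 with replicate summits within 50 bp and 22 within 200 bp. A single replicate cannot give that count. Where space was measured to a gene of any class, the similar genes' share within 1000 bp was 8.41% in place of 5.03%. With space and length both similar, a comparison added later, it was 6.64%. No paired analysis was possible because there is 1 group. With 32 genes, shares have intervals over 10 percentage points wide.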
